A study of Homo sapiens with 2 samples.

Results

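Chromosome 19 held 878 of the 17396 UTX peaks called in Jurkat, a long-established line from T cell acute lymphoblastic leukaemia, and these 878 peaks are described here by position along the chromosome. They were selected on the chromosome name in the UTX peak list. The chromosome itself was singled out by its low share of UTX peaks with TAL1, so that share is a description and is not tested. Chromatin immunoprecipitation with sequencing was made once with a mixture of a home made antibody (9838P) and A302-374A against UTX, and once with a control IgG, in untreated cells of the same line. The IgG library was not analysed here. A TAL1 peak list from an earlier study, with 77 peaks on chromosome 19 of 2678 in all, was set beside the UTX list. The TAL1 list belongs to no sample of the series, so the sample labels do not give its cells. Matched cells are not assumed. Both lists hold positions only, so the depth behind each peak is unknown, and there is no replicate: no difference below has a replicate check, peaks are not replicates of a condition, and no test was made. Intervals in brackets are 95% intervals, exact binomial for shares, exact Poisson for densities and from order statistics for medians. They cover the counting of peaks only.

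UTX (KDM6A) is a demethylase that removes the repressive methyl marks of histone H3 lysine 27 and works within the MLL3 and MLL4 complexes that mark enhancers. TAL1 is a basic helix-loop-helix factor that binds E-box sequences together with GATA3, RUNX1 and their cofactors in T cell leukaemia. Chromosome 19 is the most gene-dense human chromosome and carries many of the large clusters of KRAB zinc finger genes, whose proteins recruit TRIM28 and histone H3 lysine 9 methylation to transposons. Clusters of these genes are themselves known for lysine 9 methylation over their coding ends.

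In the RefSeq gene table at hand (GRCh38.p14, used here for names and neighbours only), 264 of the 1451 protein-coding genes of chromosome 19 (18.2%) had symbols of the ZNF, ZFP, ZSCAN or ZIM series, against 561 of 20056 (2.80%) on all chromosomes. Of the 264 genes, 212 stood in 19 uninterrupted runs of 5 or more neighbours. The longest run counted 27 genes, from ZNF737 to ZNF681, and 2 runs counted 24 genes each, from ZNF627 to ZNF791 and from ZNF565 to ZNF793. Among the runs nearer the q-arm end were those from ZNF577 to ZNF836 (10 genes), from ZNF766 to ZNF83 (10) and from ZNF530 to ZNF256 (16). The peak lists use hg19, so none of these genes is tied to a peak here, and the zinc finger content of the segments named below was not checked against an annotation of that build.

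The p-arm end had the most UTX peaks per Mb of the segments compared. The first 7 Mb held 176 UTX peaks, or 25.1 per Mb [21.6 to 29.1], and 10 TAL1 peaks. The zinc finger segment at 20 to 24 Mb, called proximal here, held 13 UTX peaks, or 3.25 per Mb [1.73 to 5.56], and 3 TAL1 peaks. The zinc finger segment at 52 to 59 Mb, called distal, held 101 UTX peaks, or 14.4 per Mb [11.7 to 17.5], and 8 TAL1 peaks. The p-arm end thus had 7.74 times the UTX density of the proximal segment and 1.74 times that of the distal one. The distal segment as a whole was not poor in UTX: the q arm between 28 and 52 Mb held 320 UTX peaks, or 13.3 per Mb [11.9 to 14.9], and its interval overlapped that of the distal segment. Peaks were not tied to zinc finger genes, so these densities describe segments and not those genes. The remaining p arm, at 7 to 20 Mb, held 260 UTX peaks, or 20 per Mb [17.6 to 22.6]. Its interval overlapped that of the p-arm end, where 44 of the 176 UTX peaks lay in the window at 1 to 2 Mb.

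Per Mb, UTX peaks covered 9.92 kb of the p-arm end, 8.91 kb of the remaining p arm, 5.60 kb between 28 and 52 Mb, 5.95 kb of the distal segment and 1.10 kb of the proximal one. The order of the segments by covered length was that by peaks per Mb. No peak of either list lay between 24 and 28 Mb, around the centromere, and 8 UTX peaks lay beyond 59 Mb.

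The segment edges fell between peaks at unequal distances. The edge at 7 Mb lay between a UTX peak of 383 bases ending at 6892361 and one of 157 bases starting at 7009222. The edge at 20 Mb lay between a peak of 933 bases ending at 19779817 and one of 355 bases starting at 20059660. The edge at 52 Mb separated a peak of 373 bases ending at 51945088 from one of 468 bases starting at 52049968. The edge at 24 Mb had no UTX peak from 23433519 to 28501624.

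Within the p-arm end, the 1 Mb windows from 0 to 7 Mb held 14, 44, 33, 22, 25, 17 and 21 UTX peaks in order. Of these peaks, 1, 0, 1, 1, 2, 2 and 2 overlapped TAL1. The window with most UTX peaks of the chromosome, 1 to 2 Mb, was therefore the only one of these 7 without a TAL1 peak. Each of the 7 windows held at least 14 UTX peaks, whereas the proximal segment had windows of 1, 11, 0 and 1 and the distal segment had windows of 10, 0, 21, 21, 19, 9 and 21. Both zinc finger segments had a window without UTX. The distal segment also had windows as full as some of the p-arm end, and the proximal segment had none.

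**Figure D1:**
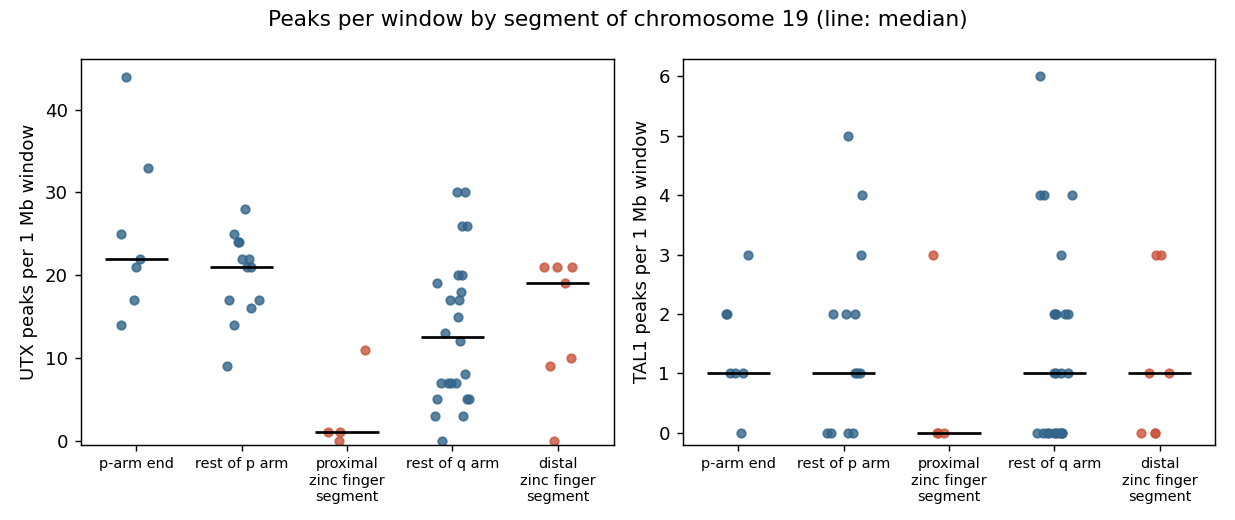
UTX peaks (left) and TAL1 peaks (right) in each 1 Mb window of chromosome 19, by segment; each point is a window, the black line is the median, and the zinc finger segments are red. The median UTX count was 22 in the p-arm end, 21 at 7 to 20 Mb and 12.5 at 28 to 52 Mb. It was 1 in the proximal and 19 in the distal zinc finger segment, while no window held more than 6 TAL1 peaks.

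UTX in the proximal zinc finger segment was almost confined to 1 window. Of its 13 peaks, 11 lay at 21 to 22 Mb, and 5 of those stood between 21751896 and 21810635. In this short stretch 3 UTX peaks overlapped TAL1: the peak of 351 bases at 21785652 to 21786002, the peak of 221 bases at 21795010 to 21795230 and the peak of 523 bases at 21810113 to 21810635. Their TAL1 peaks measured 166, 87 and 238 bases. The neighbour at 21793161 to 21793467 (307 bases) had its nearest TAL1 peak 1.60 kb away. Before the group, the peaks at 21203282, 21264855, 21324638, 21579759 and 21688330 stood singly, 582 to 97.1 kb from TAL1, and the peak of 188 bases at 21950351 to 21950538 followed it at 140 kb. The isolated peaks of 355 bases at 20059660 to 20060014 and of 517 bases at 23433002 to 23433518 were over 1.6 Mb from any TAL1 peak. Without the window at 21 to 22 Mb, the segment had 0.667 UTX peaks per Mb and no TAL1 peak.

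The distal zinc finger segment opened with a small TAL1 group and then had a long gap. Its first window, 52 to 53 Mb, held 10 UTX peaks, of which 3 overlapped TAL1. A pair of these stood side by side, at 52049968 to 52050435 (468 bases) and 52050897 to 52051362 (466 bases), and the third, at 52310123 to 52310978, measured 856 bases. From 52773095 to 54370551, or 1.60 Mb, there was no UTX peak and 1 TAL1 peak, which lay 350 kb from the nearest UTX peak. The other shared sites of the segment were UTX peaks at 54714590 to 54715040, 54899683 to 54900071 and 56137647 to 56138074, of 451, 389 and 428 bases. After the last of them, 48 UTX peaks followed to the end of the chromosome, over 2.94 Mb, without TAL1.

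Stretches of over 1 Mb without UTX numbered 6 on the chromosome. Besides the centromere, 2 lay in the proximal segment (20060015 to 21203281 and 21950539 to 23433001), 1 in the distal segment as given above, and 2 on the remaining q arm (30497421 to 31705071 and 42954744 to 44066752). The last of these held 1 TAL1 peak, and the 3 others outside the distal segment and the centromere held 0.

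On chromosome 19 as a whole, 58 of the 878 UTX peaks overlapped a TAL1 peak by at least 1 base (6.61% [5.05 to 8.46]). The share in the whole UTX list was 12.1%, and the other chromosomes had 12.4% [11.9 to 12.9]. In 4 of the 5 segments the share was under 7%. It was 5.11% [2.36 to 9.48] in the p-arm end (9 of 176), 6.92% [4.15 to 10.7] at 7 to 20 Mb (18 of 260), 6.88% [4.36 to 10.2] at 28 to 52 Mb (22 of 320) and 5.94% [2.21 to 12.5] in the distal segment (6 of 101). The proximal segment had 23.1%, but its 3 of 13 peaks allow anything from 5.04 to 53.8%, and all 3 came from the group described above. All 5 intervals overlapped, so at this number of peaks the segments could not be ordered by TAL1 share. The intervals of the arms overlapped too, with TAL1 at 30 of 449 UTX peaks before 24 Mb (6.68% [4.55 to 9.40]) and 28 of 429 after 28 Mb (6.53% [4.38 to 9.30]).

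In point value, TAL1 density varied less than UTX density. The p-arm end had 1.90 times the TAL1 density of the proximal segment and 1.25 times that of the distal one, against 7.74 and 1.74 times for UTX. The TAL1 intervals of all segments overlapped, and the proximal value rests on 3 TAL1 peaks. There were 1.43 TAL1 peaks per Mb [0.685 to 2.63] in the p-arm end, 1.62 [1.00 to 2.47] at 7 to 20 Mb, 1.46 [1.02 to 2.03] at 28 to 52 Mb, 1.14 [0.493 to 2.25] in the distal and 0.750 [0.155 to 2.19] in the proximal segment. The p-arm end held 17.6 UTX peaks for each TAL1 peak, the distal segment 12.6, the q arm before it 9.14 and the proximal segment 4.33. On the other chromosomes the ratio was 6.35.

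**Figure D2:**
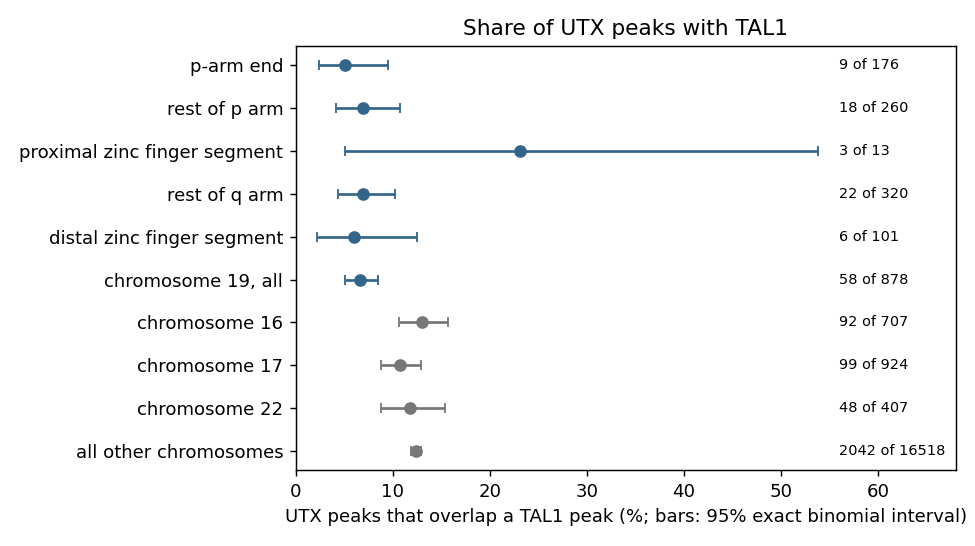
Share of UTX peaks that overlap a TAL1 peak, by segment of chromosome 19 (blue), for 3 other UTX-dense chromosomes and for all other chromosomes (grey); bars are 95% exact binomial intervals and the counts stand at the right. The 4 larger segments lie between 5.11% and 6.92%, below 12.4% for the other chromosomes, and the proximal segment has the widest interval.

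Seen from TAL1, chromosome 19 was close to the whole list. Of its 77 TAL1 peaks, 58 overlapped UTX (75.3% [64.2 to 84.4]), against 80.8% in the whole TAL1 list, a value inside that interval. UTX was found at 9 of 10 TAL1 peaks in the p-arm end, 17 of 21 at 7 to 20 Mb, 3 of 3 in the proximal segment, 23 of 35 at 28 to 52 Mb and 6 of 8 in the distal segment. Most shared TAL1 peaks were enclosed by UTX. Among 59 overlapping pairs, 55 TAL1 peaks (93.2%) lay inside the UTX peak, with centres a median of 51 bases apart, against 90.1% and 44 bases on the other chromosomes.

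The shared sites of the p-arm end were spread singly. They were UTX peaks starting at 371827, 2949908, 3133282, 4104871, 4878242, 5799178, 5826519, 6238202 and 6801406. Their widths ran from 258 bases at 5826519 to 813 bases at 6801406, and the TAL1 peak at 4878669 to 4878957 (289 bases) in the UTX peak of 796 bases was among the widest TAL1 peaks of the chromosome. The 3 widest TAL1 peaks of the chromosome lay at 7 to 20 Mb. The widest, 414 bases at 15308338 to 15308751, bridged 2 adjoining UTX peaks of 221 and 220 bases that start at 15308279 and 15308559. The next, 361 bases at 15955342 to 15955702, lay in a UTX peak of 615 bases, and the third, 344 bases at 8546114 to 8546457, in one of 833 bases. On the q arm, the UTX peak of 703 bases at 29123307 to 29124009 was the only one of the chromosome that held 2 TAL1 peaks, of 213 and 157 bases. Neighbouring UTX peaks at 29110669 and 29177668 also overlapped TAL1, so 4 TAL1 peaks of this window, 29 to 30 Mb, all lay in UTX peaks.

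The 19 TAL1 peaks without UTX were narrow, with a median width of 107 bases [93 to 121] against 171 bases [164 to 192] for the 58 with UTX. The other chromosomes had the same order, with 118 bases [114 to 122] without UTX and 156 [153 to 158] with it. Of the 19, 12 lay at 28 to 52 Mb, 4 at 7 to 20 Mb, 2 in the distal segment and 1 in the p-arm end. The median distance to UTX was 26.5 kb for the 496 such peaks elsewhere, and 158 of them were within 10 kb. For these 19 it was 11.2 kb, and 8 were within 10 kb. The widest pair, 155 bases each, stood at 28510859 to 28511013, 1.17 kb from UTX, and at 49908841 to 49908995, 3.94 kb from UTX. The farthest 2 lay in stretches without UTX that were named above, at 54020648 to 54020785 and 43720985 to 43721071, 350 and 346 kb away.

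When windows of similar UTX count were compared, the intervals of chromosome 19 and of the rest lay apart in windows of 20 or more UTX peaks. They overlapped in windows of 25 or more. In windows with 1 to 9 UTX peaks, 10 of 85 UTX peaks of chromosome 19 overlapped TAL1 (11.8% [5.79 to 20.6]), against 13.2% [12.4 to 14.1] on the other chromosomes. With 10 to 14 UTX peaks the shares were 12.2% [5.71 to 21.8] and 12.7% [11.7 to 13.8]. With 15 to 19 they were 8.14% [4.52 to 13.3] and 12.3% [11.1 to 13.6], and with 20 or more 4.57% [2.98 to 6.67] and 10.0% [8.98 to 11.2]. In windows of 25 or more, 13 of 267 UTX peaks of chromosome 19 overlapped TAL1 (4.87% [2.62 to 8.18]). On the other chromosomes 8.24% [6.87 to 9.78] did, so these intervals overlapped again. With lower starts the intervals lay apart. In windows of 15 or more the shares were 5.42% [3.89 to 7.34] and 11.2% [10.4 to 12.0]. In windows of 10 or more they were 6.05% [4.50 to 7.95] and 11.8% [11.1 to 12.4]. Both classes include the windows of 20 or more. The 22 chromosome 19 windows of 20 or more UTX peaks, of 138 such windows in all, held 547 of its 878 UTX peaks and 25 of its 58 shared ones.

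The number of TAL1 peaks per window was compared in the same way. On the other chromosomes it went up with the UTX count, from 0.439 in windows of 1 to 4 UTX peaks over 1.09, 1.90 and 2.44 to 3.03 in windows of 20 or more. On chromosome 19 it was 0.250, 1.18, 1.83, 1.80 and 1.5 in the same classes. In its 9 windows of 25 or more UTX peaks it was 2, from 18 TAL1 peaks, against 3.24 in such windows elsewhere. Over the 54 windows of chromosome 19 with a peak of either list, Spearman's rho between the UTX and TAL1 counts was 0.21 (Pearson's r 0.11), and over 2330 windows of the other chromosomes it was 0.55 (r 0.54). The 2 sets were not matched for UTX count. Elsewhere 1046 windows held 1 to 4 UTX peaks and 116 held 20 or more, against 4 and 22 on chromosome 19. No other chromosome was correlated singly. These correlations describe windows of the same 2 lists, which share gaps and base composition, and carry no p-value.

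**Figure D3:**
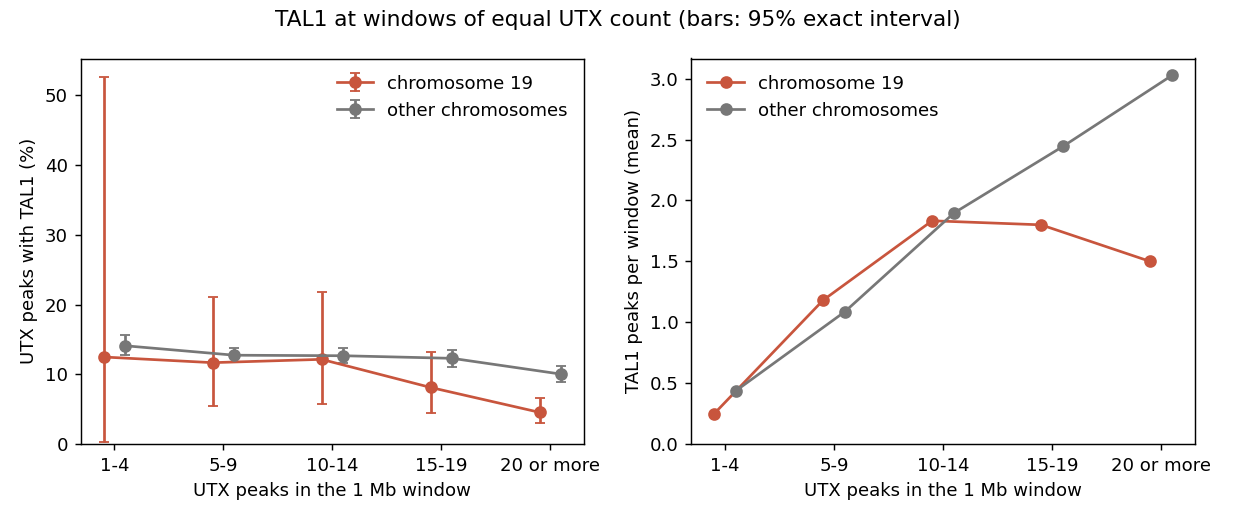
Share of UTX peaks with TAL1 (left, 95% exact binomial intervals) and mean number of TAL1 peaks (right) in 1 Mb windows grouped by their UTX count, for chromosome 19 (red) and all other chromosomes (grey). In windows of 20 or more UTX peaks the share is 4.57% on chromosome 19 and 10.0% elsewhere, while the intervals overlap at lower counts.

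Other chromosomes also had low shares in dense windows. Among the 14 chromosomes with at least 4 windows of 20 or more UTX peaks, chromosome 19 had the lowest share, but the intervals of 7 of the 13 others overlapped its own. These were chromosome 2 (11 of 217, 5.07% [2.56 to 8.89]), chromosome 9 (7 of 125, 5.60% [2.28 to 11.2]), chromosome 12 (11 of 165, 6.67% [3.37 to 11.6]), followed by chromosomes 6, 20, 3 and 7 with 7.47%, 9.47%, 9.90% and 10.7%. The dense chromosomes 16, 17 and 22 had 10.98%, 11.3% and 14.95% in these windows, and their intervals lay above that of chromosome 19. The first 7 Mb of chromosome 16 had a share close to that of the p-arm end of chromosome 19, with 116 UTX peaks (16.6 per Mb), 8 TAL1 peaks and 7 shared UTX peaks (6.03% [2.46 to 12.0]). The first 7 Mb of chromosome 17 held 104 UTX peaks (14.9 per Mb) and 14 TAL1 peaks, with 12 shared (11.5% [6.11 to 19.3]).

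Long rows of UTX peaks without TAL1 were frequent on chromosome 19. Such rows are not independent of the low TAL1 share by which the chromosome was singled out. The counts of UTX peaks per row were not adjusted for UTX density. Between the TAL1 peaks at 371848 to 371956 and 2950066 to 2950171 lay 2.58 Mb with 87 UTX peaks and no TAL1 peak, and so 87 of the 176 UTX peaks of the p-arm end. Of 2654 stretches between neighbouring TAL1 peaks of the genome, only 1, on chromosome 6 with 99 UTX peaks, held more. Further rows were 65 UTX peaks between 39743357 and 43720984, 54 between 44563780 and 47747408, 44 between 11132660 and 13024971 and 44 between 13213692 and 15308337. Chromosome 19 thus gave 5 of the 10 stretches with most UTX peaks, although a further stretch, on chromosome 6, also held 44. Of its 38 windows with at least 10 UTX peaks, 11 (28.9%) held no TAL1 peak, against 105 of 631 (16.6%) on the other chromosomes. The 11 started at 1, 7, 12, 14, 19, 40, 41, 42, 45, 46 and 58 Mb and held 224 UTX peaks in all. Among windows of 1 to 9 UTX peaks, 9 of 15 (60%) held no TAL1 peak, close to the 924 of 1684 (54.9%) elsewhere. The windows richest in TAL1 had 6 peaks at 48 to 49 Mb, 5 at 15 to 16 Mb and 4 each at 16, 29, 33 and 35 Mb. In that order they held 17, 17, 25, 7, 12 and 5 UTX peaks. Only the window at 16 Mb was thus among the 9 of the chromosome with 25 or more UTX peaks.

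The distance to TAL1 shows the same rows. The median distance to TAL1 was 277 kb for UTX peaks of the p-arm end, for those of the distal zinc finger segment 141 kb, for those of the proximal one 140 kb, and for those at 7 to 20 and 28 to 52 Mb 162 and 178 kb. For the chromosome the median was 188 kb [154 to 220], and the 161 kb of the other chromosomes lay inside that interval. UTX peaks stood farther apart on the other chromosomes (a median gap of 46.2 kb, against 24.1 kb on chromosome 19). In the p-arm end 126 of 176 UTX peaks (71.6%) were over 100 kb from TAL1 and 15 (8.52%) within 10 kb. In the distal segment 57 of 101 (56.4%) were over 100 kb away and 14 (13.9%) within 10 kb. Long distances were not particular to chromosome 19. The first 7 Mb of chromosome 16 had a median of 366 kb, with 73.3% of UTX peaks over 100 kb from TAL1. The first 7 Mb of chromosome 17 had 149 kb and 63.5%.

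**Figure D4:**
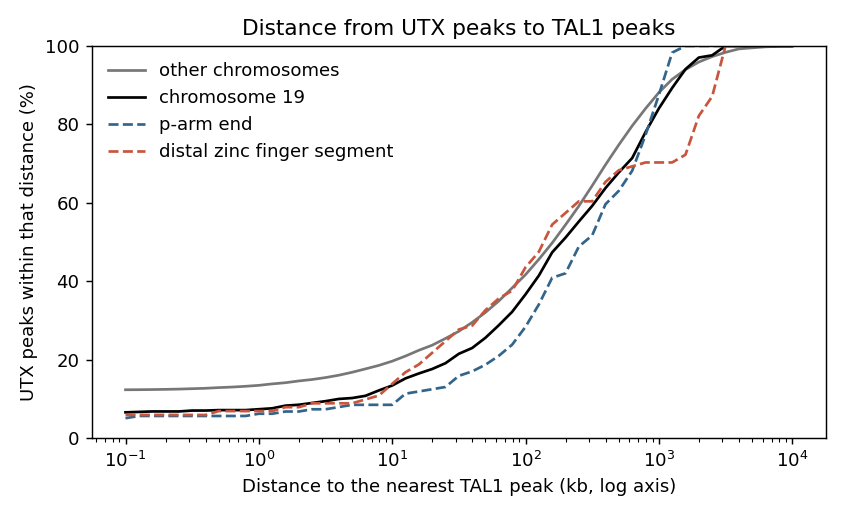
Cumulative share of UTX peaks by distance to the nearest TAL1 peak (log axis, kb), for chromosome 19, its p-arm end and distal zinc finger segment, and all other chromosomes. The curves start at the shares that touch TAL1, and within 100 kb the p-arm end reaches 28.4%, the distal segment 43.6% and the other chromosomes 41.7%.

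UTX peaks of chromosome 19 were wider than those elsewhere in their middle value. Their median width was 357 bases [340 to 373], against 318 [315 to 321] on the other chromosomes. The UTX-dense chromosomes were closer. Chromosomes 17 and 22 had 335.5 bases [322 to 355] and 336 [315 to 352], intervals that overlapped that of chromosome 19. Chromosome 16 had 324 [312 to 340]. Medians by segment were 346.5 bases [308 to 374] in the p-arm end, 375.5 [343 to 413] at 7 to 20 Mb, 320 [284 to 388] in the proximal segment, 352 [324 to 377] at 28 to 52 Mb and 362 [297 to 404] in the distal segment, and these 5 intervals overlapped. In each width quartile of the whole list the TAL1 share was lower on chromosome 19 than elsewhere: 2.25% [0.616 to 5.65] against 5.76% [5.08 to 6.51] among the narrowest peaks, then 5.18% [2.51 to 9.32] against 9.67% [8.79 to 10.6], 7.63% [4.58 to 11.8] against 14.1% [13.0 to 15.2], and 9.59% [6.36 to 13.7] against 20.2% [18.99 to 21.5] among the widest. The intervals overlapped in the 2 narrower quartiles and lay apart in the 2 wider ones. On chromosome 19, UTX peaks with TAL1 had a median of 432 bases [373 to 483] and those without 349.5 [334 to 368]. On the other chromosomes the medians were 405 [394 to 416] and 308 [306 to 311].

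Of the 878 peaks, 32 (3.64%) were wider than 1 kb, against 2.15% in the whole list. Chromosome 17 had 3.14%, chromosome 16 had 1.56% and chromosome 22 had 1.23%. There were 4 in the p-arm end, 9 at 7 to 20 Mb, 14 at 28 to 52 Mb, 3 in the distal segment, 2 beyond it and 0 in the proximal segment. The widest measured 2982 bases at 51296141 to 51299122 and lay 72.5 kb from TAL1. The next, 2455 bases at 54711761 to 54714215 in the distal segment, ended 0.436 kb before a TAL1 peak that lay in the adjoining UTX peak at 54714590. The peaks of 2307 bases at 10225086 to 10227392, 2131 bases at 13265125 to 13267255 and 1762 bases at 16188751 to 16190512 had no TAL1 peak inside, with distances of 9.44, 51.4 and 6.78 kb. Among the 10 widest, only the peak of 1458 bases at 13048165 to 13049622 overlapped TAL1. In the p-arm end the widest was 1259 bases at 4088748 to 4090006, 15.02 kb from TAL1, followed by 1078 bases at 1269556 to 1270633, 898 kb from TAL1. None of the 5 widest peaks of the p-arm end overlapped TAL1.

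UTX peaks stood in groups on chromosome 19 more often than on the other chromosomes pooled. The comparison was not adjusted for UTX density, and clusters were not counted on chromosomes 16, 17 and 22 singly. Median gaps between UTX peaks there were 31.7, 31.6 and 36.9 kb. They were 24.1 kb on chromosome 19 and 46.2 kb on the other chromosomes pooled. Joining peaks no more than 10 kb apart put 443 of 878 peaks (50.5%) into 163 clusters, against 40.3% of the peaks of other chromosomes. The p-arm end had 99 of 176 peaks in clusters (56.2%) and the distal segment 59 of 101 (58.4%). The proximal segment had 3 of 13. The distal segment thus had as large a clustered share as the p-arm end, at 14.4 against 25.1 peaks per Mb. Of 9 clusters of 6 or more peaks, 2 lay in the p-arm end, with 7 peaks at 1249374 to 1270633 and 6 at 1021257 to 1041263, and TAL1 was 877 and 649 kb away. The 2 of the distal segment had 8 peaks each, at 54875245 to 54900071 and 56131834 to 56165448, and each held 1 TAL1 peak. Of the other 5, the cluster of 6 at 16181260 to 16206085 held 1 TAL1 peak. The remaining 4 held 0: the largest of the chromosome, with 10 peaks at 12886460 to 12917602, the cluster of 8 at 39881529 to 39903487, and clusters of 6 at 13262423 to 13278763 and 49116779 to 49150041. In all, 3 of the 9 clusters held TAL1, and clusters of the other chromosomes were not compared for TAL1. By group size, TAL1 overlapped 22 of 435 lone UTX peaks (5.06% [3.20 to 7.56]), 20 of 210 in pairs (9.52% [5.91 to 14.3]), 12 of 143 in clusters of 3 or 4 (8.39% [4.41 to 14.2]) and 4 of 90 in clusters of 5 or more (4.44% [1.22 to 10.99]). These intervals overlapped as well, and each held the 6.61% of the whole chromosome. Shares by group size were not set beside other chromosomes.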

How the data were processed

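The data were 2 deposited peak lists with 3 columns, chromosome, start counted from 0 and end, without score, summit or read count. Per the submitters' processing notes, the tools were MACS2 2.0.10, BWA 0.6.2 and SAMtools 0.1.18, on hg19; not given in the sources used here are their order, the threshold, the use of the mock, and how and on which build the TAL1 list was called. Its base-level overlap with UTX is the reason for reading it as hg19. Peak calling decides what counts as a peak, so the number of UTX and TAL1 peaks cannot be compared as occupancy.

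Peaks were assigned to 1 Mb windows and segments by their centre. A peak was shared if at least 1 base overlapped. Densities use nominal segment lengths, and for whole chromosomes the span from the first to the last peak. Positions are printed counted from 1. Counts were checked with bedtools 2.31.1, and the overlap and distance functions had 0 mismatches on simulated lists; scipy 1.17.1, numpy 2.4.6, pandas 2.3.3 and matplotlib 3.10.9 under Python 3.11.15 did the rest. By rule, named sites are the widest UTX and TAL1 peaks of the chromosome and of each segment, clusters of 6 or more UTX peaks, windows with most peaks, and windows with 10 or more UTX peaks and no TAL1 peak. Shared sites, peaks at 20 to 24 and 52 to 53 Mb, edges and long stretches were added after their values were seen. The members, segments and gene list were chosen with earlier results of these data known. Gene features, motifs and peak sequences of hg19 were not used here.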

Additional observations from a re-analysis of the deposited data

How the results depend on the processing

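Of 81 values under other settings, 66 stayed within the interval of the reported value (for cluster numbers, within 1.5 times) and 15 did not; 8 of the values came from settings chosen after seeing the data. The share of chromosome 19 UTX peaks with TAL1 was 8.66% with the wider 50% of the UTX list and 9.70% with UTX peaks joined across 10 kb. It was 11.8% in windows with fewer than 10 UTX peaks, a setting added later. The 8.66% does not compare with the 12.4% of all UTX peaks elsewhere. In the 2 wider quartiles the other chromosomes had 14.1% and 20.2%. UTX was at 58.4% of TAL1 peaks if only the wider 50% of the UTX list counted and at 95.8% if only that of the TAL1 list did. UTX density in the p-arm end was 14 per Mb with the wider 50% of the list and 16.1 with joined peaks; in the distal zinc finger segment it was 8.00 and 8.71. These settings hold fewer intervals. Without its window with most UTX peaks, also added later, the proximal segment had 0.667 UTX peaks and 0 TAL1 peaks per Mb and a TAL1 share of 0%, from 2 UTX peaks. The median distance to TAL1 was 363 kb with the wider 50% of the TAL1 list. Windows with UTX and no TAL1 made up 37.7%, and 14.3% at 2 Mb. In windows of 25 or more UTX peaks the share on the other chromosomes was 8.24% [6.87 to 9.78], against 4.87% [2.62 to 8.18] on chromosome 19. These intervals overlapped, unlike those at 20 or more. At 15 or more the intervals lay apart, with shares of 11.2% and 5.42%. Moving segment edges by 0.5 Mb, the edge at 59 Mb kept, changed no value beyond its interval. Unknown depth limits which sites count as unshared. No paired analysis was possible because only 1 library was made per antibody. Gene features were not run.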
